A study of Drosophila melanogaster with 16 samples.

Results

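Toll signalling is one of the main routes by which a fly turns on its antimicrobial defences, and its messenger RNAs were followed here in the heart of young and old males. In the background picture of the pathway, secreted recognition proteins sense parts of microbes, a chain of serine proteases ends in the Spätzle-processing enzyme SPE, the cleaved ligand Spätzle (spz) binds the receptor Toll, and an adaptor complex with Myd88 frees the NF-κB-type factors Dorsal (dl) and Dif to enter the nucleus. These factors then drive genes for secreted peptides, among them the antifungal peptide Drosomycin (Drs) and the Bomanins, short peptides needed for resistance to many infections. The fat body and blood cells are the best known sites of this response, and the adult heart lies among them in the abdomen.

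The 4 transcripts described are SPE (FBtr0084440), dl (FBtr0081005), Drs (FBtr0073073) and IM23 (FBtr0086729, a Bomanin, now named BomBc1 in RefSeq), with 32 probes among 132999 gene probes and 16637 transcripts on the array. They were chosen by their measured intensities at the 2 ages, since the study had called their probes higher at 40 days in these samples. Their ratio of 40 over 10 days is therefore given as a description, with no p-value. Where a count of them past a threshold is given, it stands beside the share of all features past it, and nothing is read from it. The names are those of the study's list of called probes. Its list of genes gives the values of 3 of these transcripts to other genes, namely AspRS for Drs, lz for SPE and Dll for dl. AspRS and Drs share a synonym in RefSeq, and so do lz and SPE, apart from upper and lower case, and no shared synonym was found for Dll and dl. No sequence or genome position of these probes was used, so the names could not be checked against the genome.

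Cardiac tubes were dissected by hand from adult males of 1 isogenic line (w1118, Canton S) that were 40 or 10 days old, and all flies carried this genotype with no transgene or treatment. Each age had 4 biological samples named A to D, each a pool of 10 tubes, so values describe pools and not single flies. RNA of each sample was amplified, labelled with both Cy3 and Cy5 and hybridised to 8 arrays of 1 slide. Each array compared the ages directly, with old tubes in one dye and young tubes in the other. By the labels, the same pair of samples was put on a further array with the dyes swapped. The authors' normalised intensities give that further array another 40-day sample, as described next. A tube is a mixture of tissues, and in such bulk RNA more RNA per cell and more cells of a type cannot be told apart.

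The labels and the authors' table of normalised intensities did not give the same channels to the same samples. Of the 16 columns of that table, 8 followed the channel named in the labels and 8 followed another channel of the same age and dye (correlation with the channel followed at least 0.992, with the next at most 0.942). Age was therefore the same in both sources. The letters differed, and with them the samples taken to share an array. By the table, the 2 arrays of a label letter held 2 different 40-day samples, and each 40-day sample fell under 2 letters. In that reading the 4 ratios by letter share old samples, so their SE and adjusted p are not those of 4 independent pairs. Across transcripts the 2 dyes of a 40-day sample correlated at 0.633 to 0.848 in the table and at -0.361 to 0.343 by the labels. For 10-day samples these values were 0.674 to 0.804 in the table and 0.739 to 0.856 by the labels. They are not correlations of plain level, for which even a channel not followed reached 0.942. For Drs the 2 dyes of a 40-day sample differed by 0.32 to 0.88 on the log2 scale in the table, against 1.74 to 2.62 in the scanner channels that the labels name. Levels of single samples below are those of the table, as the mean of both dyes, while ratios come from the scanner channels paired by letter as in the labels. A letter of a ratio therefore need not name the same samples as that letter of a level.

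Level was measured as fluorescence intensity, given as the geometric mean over the 8 probes of a transcript. Control probes of random sequence marked the background, and their 95th percentile was 118 to 194 in 40-day columns and 104 to 189 in 10-day columns. The share of gene probes above that percentile was 22.6% to 29.0% in channels of 40 days and 22.1% to 29.7% in those of 10 days. Probes differ in how well they bind, so intensities are compared between samples and not between genes.

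SPE, the protease that cleaves Spätzle into its active form, was higher in 3 of the 4 old samples than in any young one. Its intensity was 727, 695, 998 and 412 in 40-day samples A, B, C and D, against 514, 285, 400 and 441 in 10-day samples A, B, C and D. Sample D of 40 days lay inside the range of the young samples, so the ages overlapped. The geometric mean was 675 at 40 days and 401 at 10 days, and the SD on the log2 scale was 0.53 and 0.36 (n = 4 each). In the ratios within arrays SPE stood at 0.74 (log2, SE 0.16, n = 4 ratios), a 1.67-fold higher level at 40 days, and the difference of 4 samples against 4 in the authors' table was 0.75 with a wider SE of 0.32. The ratios by the letters of the labels, A to D, were 0.51, 0.90, 1.11 and 0.43. One array of the 8 had a ratio below 0, at -0.08, and the highest was 1.56.

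dl encodes Dorsal, a Rel-family factor that Toll signalling releases into the nucleus and that also patterns the early embryo. Its intensity was 127, 114, 138 and 132 in 40-day samples A to D, against 100.8, 110, 82.7 and 103 in 10-day samples A to D. Every old sample was above every young one, with a gap between 114 in the lowest old sample and 110 in the highest young one. The level over all 8 probes lay close to the background of the control probes at both ages. The ratio of dl was 0.35 (log2, SE 0.03, n = 4 ratios), or 1.27-fold, and the 8 arrays ranged from 0.25 to 0.54. In the authors' table the difference of 4 samples against 4 was 0.37 with an SE of 0.11, so the precision depended on how channels were joined.

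Drs, the textbook output of Toll signalling in the fat body, was the most uneven of the 4 among samples of one age. Its intensity was 5356, 1290, 3594 and 1207 in 40-day samples A to D, against 487, 539, 414 and 1225 in 10-day samples A to D. Samples A and C were high among the old tubes, B and D were low, and the young sample D stood above the other 3 young samples. The ages overlapped because 40-day sample D, at 1207, was just below 10-day sample D, at 1225. The highest old sample was 4.44 times the lowest, and the highest young sample was 2.96 times the lowest. The SD on the log2 scale was 1.07 at 40 days and 0.70 at 10 days, and among 3844 transcripts above the control level 4.11% and 15.7% had a larger SD at those ages.

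The average level of Drs was higher in old tubes. The geometric mean was 2340 at 40 days and 604 at 10 days, and the difference of the 4 samples against 4 was 1.95 (log2, SE 0.64). The ratios by letter, which pair channels as in the labels, were 2.499, 2.23, 1.90 and 1.08 for A to D, with a mean of 1.93 (SE 0.31, n = 4 ratios), or 3.802-fold. Over the 8 arrays the ratio ran between -0.22 and 3.39, and 7 of 8 arrays were above 0. The SE by the letters of the labels was thus smaller than the SE over samples, whereas by the letters of the authors' table it was larger, at 0.82. The letters of the labels join 40-day channels whose 2 dyes disagreed.

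IM23, a secreted Bomanin, had the largest difference of the 4 genes, and it was seen in every sample. Its intensity was 3929, 4862, 3348 and 2608 in 40-day samples A to D, against 367, 310, 519 and 500 in 10-day samples A to D. The lowest old sample, D at 2608, was far above the highest young one, C at 519, and the ages did not overlap. The geometric mean was 3594 at 40 days and 415 at 10 days, with an SD on the log2 scale of 0.38 and 0.36. The ratio was 3.06 (log2, SE 0.18, n = 4 ratios), or 8.35-fold, with 3.48, 2.95, 3.18 and 2.63 for letters A to D of the labels. All 8 arrays lay between 2.37 and 3.67.

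Set in order among all 16637 transcripts by ratio, IM23 was number 11 from the top, Drs number 45, SPE number 349 and dl number 1050. In limma with Benjamini-Hochberg adjustment over all transcripts at an adjusted p under 0.01, only IM23 of the 4 was past the threshold, against 0.144% of all transcripts higher at 40 days. With 4 samples against 4 in the authors' table, again only IM23 was past it, against 0.301% of all transcripts. For 2 of the 4, dl and IM23, every 40-day sample was above every 10-day sample in the authors' table, against 3.29% of all transcripts. All 4 had 4 ratios above 0, as did 15.9% of all transcripts. The choice of these genes used this contrast, so these counts are no support for it.

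**Figure D1:**
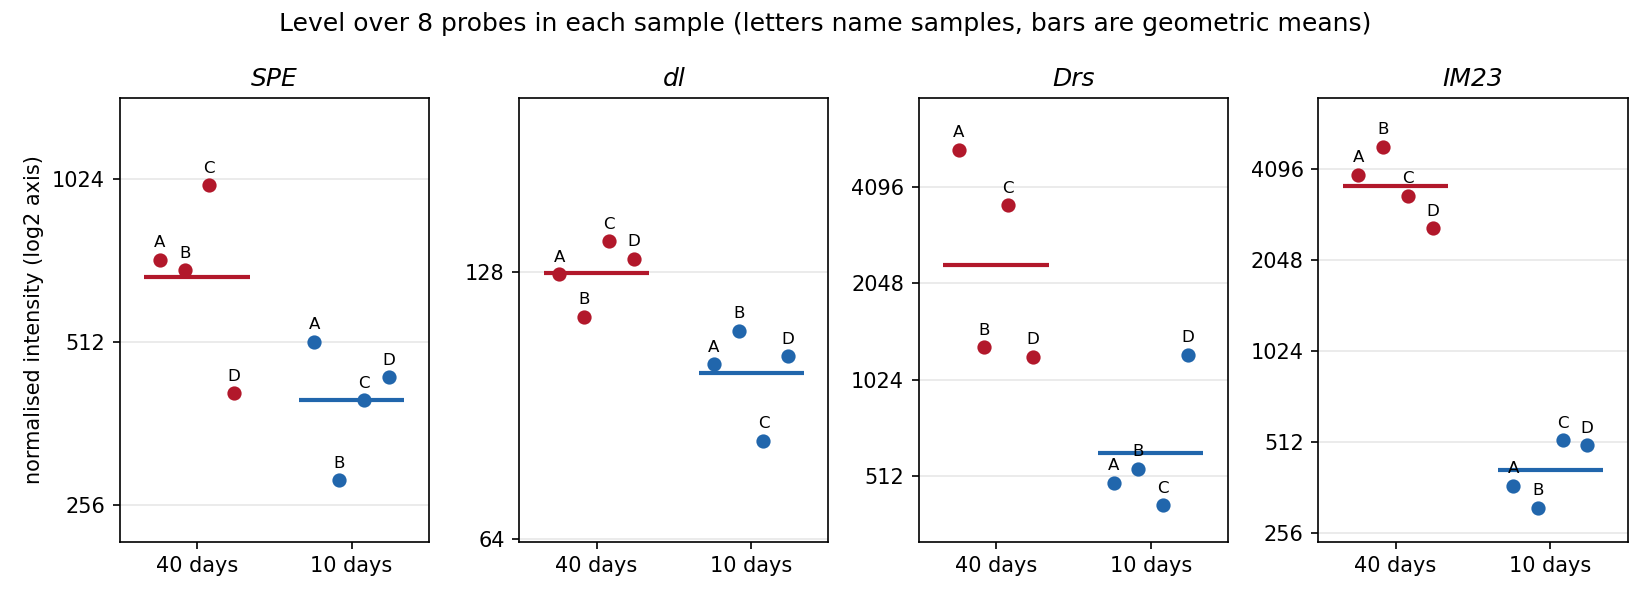
Normalised intensity of SPE, dl, Drs and IM23 (log2 axis, geometric mean of 8 probes) in the 4 samples of 40 days and the 4 samples of 10 days; points are samples labelled by letter and bars are geometric means. The ages are apart for dl and IM23, while sample D of 40 days lies among the young samples for SPE and just below 10-day sample D for Drs.

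In single dyes the differences of the table shifted with all transcripts, whose median difference of 40 and 10 days was 0.28 in Cy3 and -0.27 in Cy5 (log2). Relative to these medians Drs stood at 2.13 in Cy3 and 1.78 in Cy5, and IM23 at 3.24 and 2.99 in the same dyes. SPE stood at 0.98 in Cy3 and 0.52 in Cy5, and dl at 0.31 and 0.43. Each gene was thus higher at 40 days in both dyes once that shift was taken off. Before it was taken off, SPE differed by 1.26 in Cy3 and 0.24 in Cy5. A larger gap between the dyes than that of SPE was seen in 2.90% of all transcripts, so SPE depended on the dye more than most. On the arrays, the 4 with the 40-day sample in Cy5 gave a mean ratio of 1.86 for Drs and the 4 with it in Cy3 gave 1.997. The same means were 3.08 and 3.04 for IM23, 0.62 and 0.86 for SPE, and 0.35 and 0.35 for dl.

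The 8 probes of a transcript lie at different distances from its start, and the ratio depended on which probe was read. SPE had 3 probes at positions 34, 115 and 203 whose ratios were 0.07, 0.19 and 0.02 (log2), and none of these was above the control percentile in more than 2 of 8 channels at either age. The other 5 probes, at positions 541 to 976, were bright at both ages and had ratios between 0.91 and 1.34. At the last of them, position 976, the median intensity was 4639 at 40 days and 1844 at 10 days.

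The split was sharper for dl. Of its 8 probes, 6 at positions 534 to 1352 stayed near the control level at both ages, with ratios between -0.16 and 0.28. The probe at position 1720 had a ratio of 1.07 (SE 0.11, n = 4 ratios), with a median intensity of 288 at 40 days and 132 at 10 days, and was above control in 7 of 8 channels at 40 days and 3 of 8 at 10 days. The probe at position 1943 had a ratio of 1.29 (SE 0.16), with medians of 563 at 40 days and 193 at 10 days, and was above control in 8 channels at 40 days and 7 at 10 days. The small ratio of 0.35 for the transcript is thus an average of 2 probes with ratios above 1 and 6 dim probes.

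In Drs the ratio climbed along the transcript, with 1.26 at position 1, 1.98 at position 33, 2.18 at position 118 and 2.56 at position 143. All 8 Drs probes were above control in at least 7 of 8 channels at both ages, and 6 of the 7 neighbouring pairs overlapped in sequence, so they are not separate measurements. In IM23 the first probe, at position 36, had a ratio of 1.08, the next at positions 152 and 170 had 2.72 and 3.08, and the 5 overlapping probes at positions 268 to 284 had 3.38 to 3.65. The probe of IM23 at position 276 had a median intensity of 11489 at 40 days and 843 at 10 days, and its ratio within arrays was 3.65 on the log2 scale.

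At the level of probes, 7 of the 8 IM23 probes and none of Drs, SPE or dl had an adjusted p under 0.01 in limma, against 0.332% of all gene probes higher at 40 days. The study had called these probes on the same samples, so the count describes them and tests nothing. Spearman's rho of position and ratio over the 8 probes was 0.98 for Drs, 0.60 for IM23, 0.93 for SPE and 0.93 for dl, given as a description. Across 16617 transcripts with 8 probes the median rho of position and 40-day level was 0.48 and that of position and ratio was 0.02. Among the 701 transcripts named from the study's list of called probes, these medians were 0.81 and 0.79. The amplification kit primes at the poly(A) tail, and its part in the pattern along the transcripts was not tested.

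**Figure D2:**
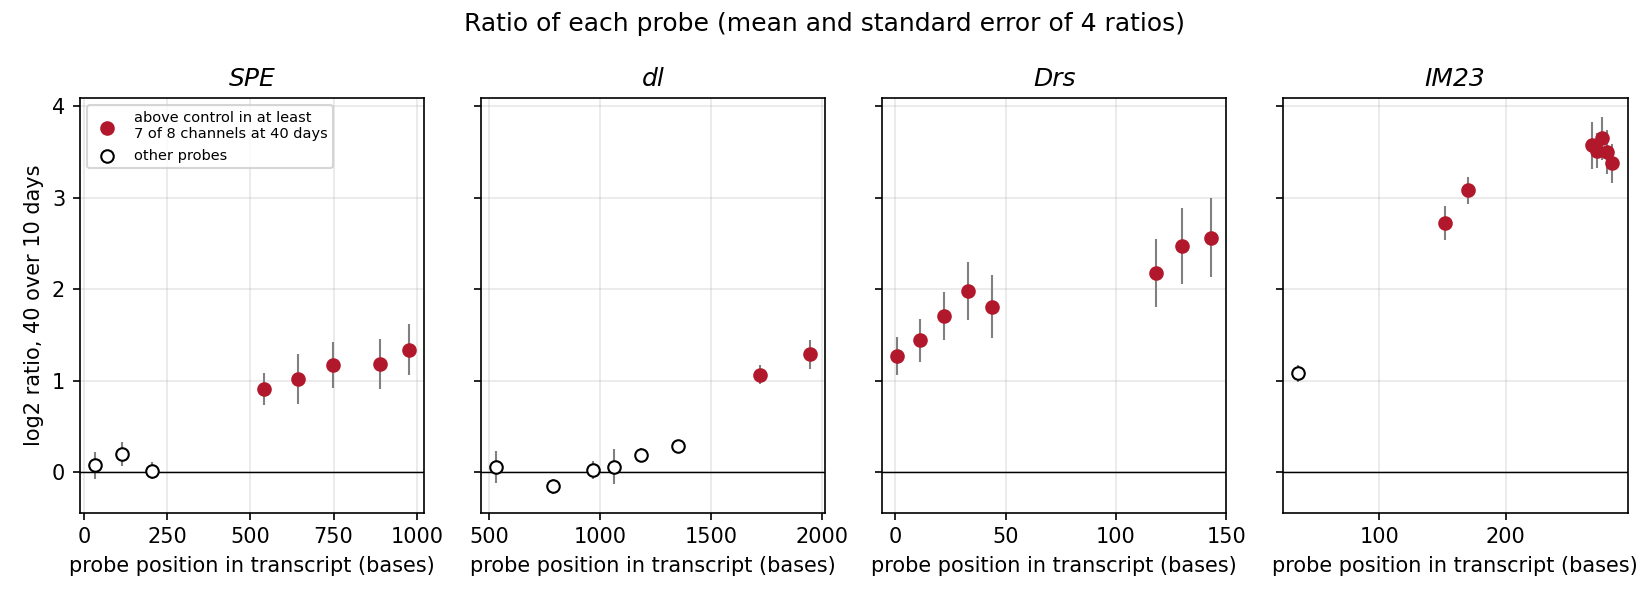
Log2 ratio of 40 over 10 days for each of the 8 probes of SPE, dl, Drs and IM23 against the position of the probe in the transcript (bases); points are means and bars standard errors of 4 ratios, and filled points are probes above the control percentile in at least 7 of 8 channels at 40 days. The filled points, 5 for SPE, 2 for dl, 8 for Drs and 7 for IM23, lie above the open ones.

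Reading SPE and dl over their filled probes alone changed the size of the difference, though this filter uses the 40-day channels and so favours high ratios. Over 5 probes the intensity of SPE was 2524, 2300, 3129 and 1008 in 40-day samples A to D, against 1358, 553, 904 and 1132 in 10-day samples A to D. Sample D of 40 days was again the low one and lay below 2 of the young samples. The SPE ratio on these probes was 1.12 (log2, SE 0.22, n = 4 ratios), or 2.18-fold.

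Over 2 probes the intensity of dl was 462, 387, 416 and 289 in 40-day samples A to D, against 206, 156, 133 and 154 in 10-day samples A to D. The ages were apart, and sample D was the lowest of the old ones, which it was not over all 8 probes. The dl ratio on these probes was 1.18 (SE 0.11), or 2.26-fold.

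**Figure D3:**
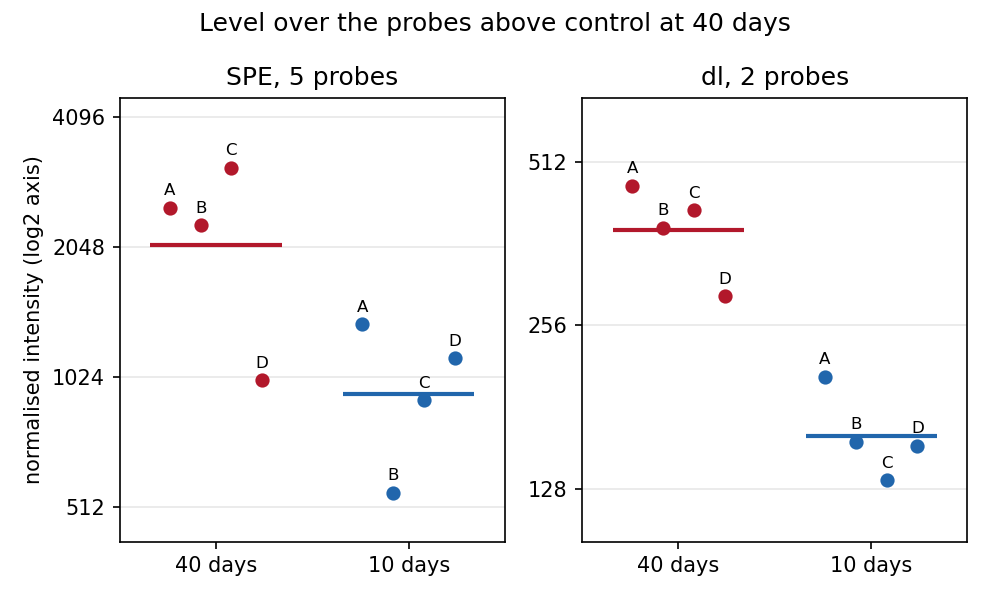
Normalised intensity (log2 axis) of SPE over 5 probes and of dl over 2 probes that were above the control percentile in at least 7 of 8 channels at 40 days; points are samples labelled by letter and bars are geometric means. Sample D is the lowest 40-day sample in both, and the ages overlap for SPE and not for dl.

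Single spots of 2 members failed on array 3, where both channels fell to background on probes that were bright on the 7 other arrays. The Drs probe at position 44 read 37.1 in Cy5 and 70.6 in Cy3 there, with medians over the arrays of 1598 and 1635. The SPE probe at position 891 read 60.1 in Cy5 and 48.1 in Cy3, with medians of 2969 and 1651. Among all gene probes 525 spots were of this kind. Leaving out the Drs probe from every sample gave 4909, 1549, 3400 and 1123 in 40-day samples A to D, against 462, 507, 460 and 1136 in 10-day samples A to D. The order of ages was as before, with 40-day sample D below 10-day sample D. Without its probe SPE gave 560, 691, 804 and 341 in 40-day samples A to D, against 437, 246, 422 and 351 in 10-day samples A to D, and sample D was again the lowest old one.

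The 40-day samples were not ordered alike in the 4 genes. Sample D was the lowest in SPE, Drs and IM23 and sample B was the lowest in dl, whereas the highest was C for SPE and dl, A for Drs and B for IM23. Across the 8 samples Pearson's r of log2 level was 0.79 for Drs and IM23, 0.77 for Drs and SPE, 0.78 for Drs and dl, 0.75 for IM23 and SPE, 0.72 for IM23 and dl, and 0.53 for SPE and dl. These correlations hold the difference of the 2 ages within them and share the samples' arrays, so they are given as a description. In 18 named Toll pathway genes, the 4 members among them, sample D was the lowest old sample in 14. It was the lowest in 17.5% of all transcripts and in 31.2% of the 701 named from the study's list.

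The rest of the pathway could be read only where the study's lists give a transcript a name, and those names exist because the study called the probes changed. Of 69 genes listed for the pathway, 18 were named, including the 4 members, and the 14 others all had a ratio above 0, with a median of 0.97, against 0.59 over the transcripts named from the study's list of called probes and 0.01 over all transcripts. The names were picked on these very samples, so the count is not independent evidence of a direction. At an adjusted p under 0.01 in limma none of the 14 rose, against 0.144% of all transcripts. At an adjusted p under 0.05 in limma 7 were higher, against 1.33% of all transcripts. At an unadjusted p under 0.05 in limma 14 were higher, as were 1678 of all 16637 transcripts. In the authors' table with 4 samples against 4, limma called 2 of the 14 higher at an adjusted p under 0.01, PGRP-SA and Mtk. The share of all transcripts in that setting was 0.301%, and nothing is read from these counts.

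Upstream of SPE, both named recognition proteins stood high. PGRP-SA, which binds peptidoglycan and starts the protease chain, had 3175, 3807, 4142 and 2305 in 40-day samples A to D, against 611, 382, 487 and 565 in 10-day samples A to D. Its ratio was 2.65 (log2, SE 0.20, adjusted p = 0.011 in limma). PGRP-SD, which helps in that recognition, had a ratio of 1.92 (SE 0.26, adjusted p = 0.038). In both, sample D was the lowest of the old samples, as in SPE.

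Among proteases and their relatives, spheroide, a catalytically inactive protease homologue that acts in the chain, had a ratio of 1.72 (SE 0.18, adjusted p = 0.022). The protease spirit had a ratio of 0.18 (SE 0.06, adjusted p = 0.24), with intensities near background at both ages. SPE, at 0.74, was between them. The serpins, which inhibit such proteases, had ratios of 0.53 for Spn5 (SE 0.13, adjusted p = 0.14) and 0.41 for CG7219 (SE 0.10, adjusted p = 0.14).

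The transcripts read for the ligand and the adaptor had ratios close to that of dl over all 8 probes, and like dl they lay near background. Over its 2 probes above control at 40 days dl stood at 1.18, so nothing is read from that likeness. The ligand gene spz had 12 named transcripts. None had a probe past the threshold, so 1 was taken by its transcript number, and the ratios of the others are not given. The transcript taken had a ratio of 0.31 (SE 0.06, adjusted p = 0.12), with intensities of 90.7 to 111 in old tubes and of 67.3 to 82.9 in young tubes. Myd88 had a ratio of 0.24 (SE 0.10, adjusted p = 0.28). None of 7 listed Toll-family receptors was named, and of the transcription factors dl alone was.

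The peptides spread more widely than Drs and IM23 alone show. The Drosomycin-like gene dro5 had 3794, 2482, 3903 and 827 in 40-day samples A to D, against 159, 181, 152 and 262 in 10-day samples A to D. Its ratio of 3.55 (SE 0.38, adjusted p = 0.023) was above that of Drs, and as in Drs the old sample D was lowest and the young sample D highest. Metchnikowin (Mtk), an antifungal peptide, had a ratio of 1.49 (SE 0.16, adjusted p = 0.023).

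The named immune-induced peptides had smaller ratios than IM23, which was 3.06. IM1 (BomS1), whose gene follows that of IM23 directly in the RefSeq gene order, had 1321, 1804, 938 and 460 in 40-day samples A to D, against 664, 419, 544 and 474 in 10-day samples A to D, and its ratio was 0.94 (SE 0.14, adjusted p = 0.049 in limma). That call was lost with 4 samples against 4 in the authors' table, where limma's adjusted p was 0.40. Old sample D thus lay among the young samples for IM1, whereas for IM23 it stood well above them. IM14, which was bright at both ages, had a ratio of 1.80 (SE 0.43, adjusted p = 0.11 in limma). CG15065 (a Bomanin, BomS5 in RefSeq) had 0.996 (SE 0.24, adjusted p = 0.12), and the Drosomycin-like gene dro2 had 0.64 (SE 0.08, adjusted p = 0.039).

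**Figure D4:**
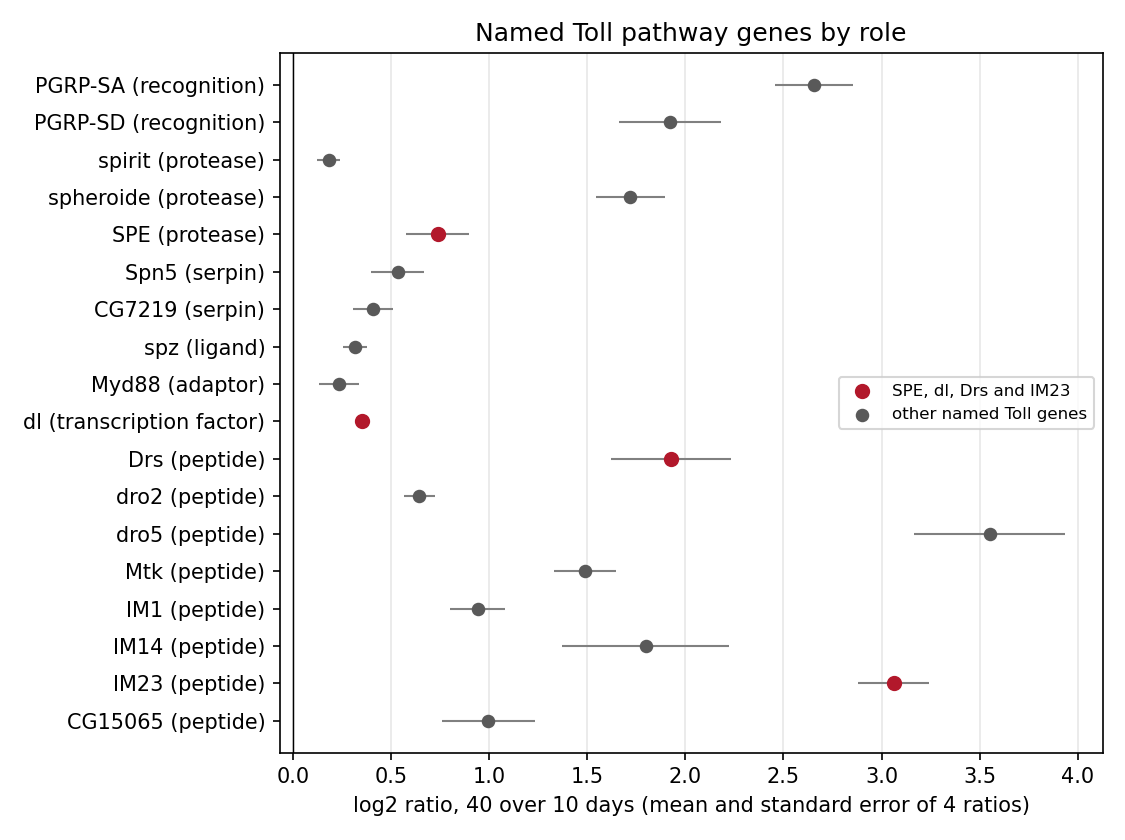
Log2 ratio of 40 over 10 days for the 18 named Toll pathway genes in order of role; points are means and bars standard errors of 4 ratios, with SPE, dl, Drs and IM23 in red. All 18 lie above 0, and all had been named because the study called them changed. Averaged over all 8 probes, the upstream enzymes, ligand, adaptor and dl are mostly under 1 and the recognition proteins and most peptides above it. The levels of spirit, spz, Myd88 and dl lay near background. Over probes above control at 40 days SPE stood at 1.12 and dl at 1.18, so the order of roles depends on the probes read.

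In the parallel imd arm of the fly's defences, 4 of 13 listed genes were named, again only because the study called them changed. Their median ratio was 0.71, against 0.59 over the transcripts named from the study's list of called probes and 0.01 over all transcripts. In limma 2 of them were higher at an adjusted p under 0.05, against 1.33% of all transcripts, and nothing is read from this count. Sample D was the highest 40-day sample for 2 of these 4, PGRP-LC and pirk (CG15678), as it was in 41.7% of all transcripts, and the lowest for none.

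The genes whose levels most resembled those of the members over the 8 samples were sought among 1153 named transcripts, all of them called changed by the study. For Drs they were Tig, which encodes the matrix protein Tiggrin (r = 0.94), Start1 (r = 0.93) and CG16978 (r = 0.91). With the mean of each age taken off, these 3 had r of 0.87, 0.81 and 0.79. For IM23 they were CG15210 (r = 0.99), the antimicrobial peptide gene AttC (r = 0.99) and CG30098 (r = 0.99), with 0.80, 0.71 and 0.85 within ages. AttC had a ratio of 3.63 and CG15210 one of 3.12, near the 3.06 of IM23.

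For SPE they were CG16743 (r = 0.97), the serine protease gene Sp7 (r = 0.96) and CG4725 (r = 0.95), and within ages r was 0.94, 0.92 and 0.90. For dl they were capt, cher and Rho1 (r = 0.97, 0.96 and 0.96), which encode an actin-binding cyclase-associated protein, a filamin and a small GTPase, with 0.92, 0.88 and 0.90 within ages. The samples share arrays and depth, and the 3 genes were the highest of many, so these values are a description.

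Markers of other tissues were named for few genes. Of 14 fat body markers 2 were named, and their summed intensity lay between 412 and 835 in old tubes and between 468 and 776 in young tubes. Lsp2, a larval storage protein gene, had a ratio of -1.65 and Rfabg, the lipophorin precursor, one of 1.22. Of 13 blood cell markers 5 were named, with a sum between 1089 and 1186 in old tubes and between 1177 and 1539 in young tubes. The 5 did not go one way, with ratios of -1.43 for Hml, -1.33 for CG8193 (PPO2), -0.22 for Pxn, 0.63 for crq and 2.06 for CG16876 (NimC4). Levels below the lowest control percentile of an age (118 at 40 days, 104 at 10 days) were seen for Pxn at both ages. The same held for CG8193 and Lsp2 in old tubes and for CG16876 in young tubes, so these sums and ratios are in part background. Of the 5 blood cell markers CG16876 was past the threshold (adjusted p = 0.0060 in limma). Its intensity was 267 to 468 in old tubes and 69.4 to 92.9 in young tubes, so the ages did not overlap. Of 11 testis markers 3 were named, with ratios of -2.37 for Mst84Dc, -1.82 for Mst98Cb and -0.94 for Mst98Ca, none past the threshold (adjusted p = 0.23, 0.16 and 0.23 in limma). Their sum lay between 717 and 3668 in old tubes and between 3660 and 11345 in young tubes, and was lowest in 40-day sample D, the low sample for SPE, Drs and IM23. Of 6 nephrocyte markers CG32702 (Cubn) was named, with a ratio of -0.56. The part of these cells in the levels of Drs, IM23, SPE and dl was not tested. None of 11 heart or 12 muscle markers was named, so the tissue label was not checked against them.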

How the data were processed

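The authors hybridised amplified RNA to NimbleGen arrays and deposited scanner intensity values for each probe (NimbleScan 2.5.26, not normalised) and a table of their lowess-normalised intensities on a linear scale, with column medians of 70.4 to 99.9. Scanner intensities were background-corrected (normexp, offset 50), normalised by loess without the 4100 control probes, turned to log2 of 40 over 10 days, averaged over the 2 arrays of a letter and over the probes of a transcript, and tested against 0 with limma 3.58.1 (R 4.3.3) and Benjamini-Hochberg adjustment at 0.01. In simulated data for this comparison (16637 transcripts) 4 ratios recovered 75% of 100 transcripts changed by 1 (log2) and 92% of 100 changed by 2, with 2 false calls. The simulation drew 4 independent normal ratios per transcript with variances from limma. Ratios that share samples were not covered, so these shares may not hold for the real arrays. The SE printed with a ratio is the unmoderated standard error of the 4 ratios and treats them as independent, as do the limma p-values of the ratios.

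Names came from the study's list of called probes (701 transcripts) or, for 452 repressed transcripts, from its list of genes by value. Other columns of these lists hold the authors' fold changes and were not reported. The members and lists were chosen with earlier results of these data known. Genes were named by rule: the 4 members, in each Toll list those past the threshold or otherwise the 2 with the smallest p, and 3 per member by correlation. The genes CG15065, IM1, IM14, Mtk, dro2, PGRP-LC, CG15678, Lsp2, Rfabg, Hml, CG8193, Pxn, crq, CG16876, Mst84Dc, Mst98Cb, Mst98Ca and CG32702 fall outside this rule and were named after their values were seen. Alternatives were other normalisations, the value table, probe filters and leaving out each letter. The number of arrays limits the precision. Figures were drawn with matplotlib from these values.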

Additional observations from a re-analysis of the deposited data

How the results depend on the processing

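The ratios of Drs, IM23, SPE and dl were above 0 under every normalisation, probe rule and omitted letter that was run. Without 1 letter of the labels they ranged from 1.74 to 2.21 for Drs, 2.92 to 3.20 for IM23, 0.61 to 0.84 for SPE and 0.33 to 0.37 for dl (log2). By the authors' table, leaving out a letter removes no 40-day sample in full, so these ranges do not show the weight of single old samples. Probe choice moved SPE to 1.11 with bright probes only (above control in all channels of an age) and 1.12 with the filter on 40-day channels. It moved dl to 0.21 with the median of probes, 1.29 with bright probes and 1.18 with the filter on 40-day channels. The bright value of dl is 1 probe, at position 1943, which passed only through its 40-day channels (8 of 8, against 7 of 8 at 10 days). Both filters can thus favour high ratios and are no independent check. The filter on 40-day channels, and leaving out low spots, were chosen after seeing the data. The median ratio of the 14 other named Toll genes moved from 0.97 to 1.57 with bright probes only. Ratios within arrays pair the samples of a letter as the labels give them. Without this pairing, 4 samples against 4, the value table gave 1.95 for Drs, 3.12 for IM23, 0.75 for SPE and 0.37 for dl. With the letter of the labels as a random replicate block the 8 arrays gave 1.93, 3.06, 0.74 and 0.35 in the same order of genes.

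Counts of calls depended on the setting far more. Transcripts higher and lower at 40 days were 24 and 7 in the fit described, 37 higher with median centring, 4 and 0 in the value table by letter, 50 higher in the value table with no replicate block, 136 and 12 in Aquantile channels with no replicate block, 277 and 63 with the replicate block on 8 arrays, 3 lower with the median of probes, 99 and 16 with bright probes, 222 and 33 at 0.05, and 0 of either in limma when any letter was left out (1141 to 1705 higher and 469 to 1447 lower at an unadjusted p under 0.05). Probes higher and lower were 442 and 61, against 1518 and 318 at 0.05, and 0 to 595 higher and 0 to 75 lower without 1 letter. IM23 probes past the threshold were 0 without letter B or D. Of the 14 other named Toll genes, 0 were past the threshold in the fit described, where 24 of 16637 transcripts were higher. With no replicate block the count was 2 in the value table (50 of all transcripts) and 5 in Aquantile channels (136). It was 1 without background correction (34), 6 with the replicate block (277), 4 with bright probes (99 of 7361) and 7 at 0.05 (222). These 14 were named because the study called them changed, so nothing is read from their counts. The cause of these shifts was not tested.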
